A study of Homo sapiens with 28 samples.

Results

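Darinaparsin (DAR) is an organic arsenical in which a dimethylated arsenic atom is joined to glutathione. Its effect after 24 h was read from the 4 arrays labelled DAR 24 hours, one for each of 4 human multiple myeloma cell lines, each set against the array labelled control 1 of the same line. These 8 arrays are part of a series of 28, all of the Affymetrix HG-U133 Plus 2.0 type, which measure the RNA of a whole cell population. U266 cells were given 4 µM DAR, MM.1s and KMS11 cells 3 µM each and 8226/S cells 2 µM. The control 1 cells were untreated and stand for 0 h in the treatment protocol, so 24 h more in culture and 24 h of DAR cannot be told apart. For comparison, 4 arrays of the same lines after 6 h at the same DAR doses were used, and 4 arrays after 24 h of arsenic trioxide (ATO), an inorganic arsenical, at 2 µM in every line, with their own untreated arrays labelled control 2. Each line is an established culture with 1 array per condition, so the 4 lines serve as the replicates. The p-values and standard errors rest on a residual spread between lines, pooled over all conditions in a fit. For 24 h of DAR against control 1, the main fit thus also draws on the DAR 6 h arrays. This spread is further moderated by that of other genes. The standard errors therefore do not measure how far the 24 h change alone differs from line to line. Nothing in the labels says whether the arrays of a line came from separate cultures.

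Myeloma arises from plasma cells, which end the B cell lineage and secrete antibodies. Arsenicals bind thiol groups of proteins, and cells answer the resulting damage with heat shock proteins, which refold or hold unfolded proteins, and with antioxidant genes driven by NRF2. Type I interferons act through a cell surface receptor that turns on a factor complex holding IRF9. This complex binds an element of repeated GAAA steps in the promoters of antiviral genes such as the IFIT, OAS and MX families.

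The arrays were all scaled by the authors to one trimmed mean, and no 2 arrays held the same values (correlations of 0.976 at most). Array medians lay between 65.5 and 109 signal units on the DAR and control 1 arrays and between 111 and 147 on the ATO and control 2 arrays. On 4 of 4 lines the DAR 24 h array was closer to control 1 of its line (correlations 0.958 to 0.974) than to control 2 (0.912 to 0.927), so control 1 is the comparison used here, and control 2 takes its place only as an alternative under the processing. The plasma cell genes SDC1 and MZB1 had signals from 1911 to 15586 and from 391.6 to 13663 on the DAR 24 h arrays, against 4321 to 17961 and 535.9 to 16499 on the control 1 arrays. Markers of B, T and NK, myeloid, fibroblast, epithelial, endothelial and erythroid cells that passed the filter on dim genes numbered 15. Of these, 0 passed the test at 24 h by limma (0.492% of all genes), and 2 of 15 had an unadjusted p under 0.05. The nearest was ITGAM, a myeloid integrin, with signals of 93.9 to 408.6 after DAR, against 11.5 to 129.9 in control 1 (adjusted p = 0.0545). In a fit on all 28 arrays, 1 of the 2 tested myeloid markers passed as higher after DAR. Where 4 values are given for the 4 lines, they stand in the order U266, MM.1s, KMS11 and 8226/S.

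Changes are given as the difference between DAR 24 h and control 1 in log2 of the signal plus 32, averaged over the 4 lines, with the standard error (SE) of the fit. Of 13414 genes tested, 66 passed an adjusted p of 0.05, which is 0.492% of them. Of these, 56 rose (0.417%) and 10 fell (0.0745%), and all 66 moved in one direction in the 4 lines. The median change over all genes was 0.02. All 66 would also have passed the filter on dim genes without the DAR 24 h arrays. The count depends on how the spread is estimated and on single lines: the fit on the 8 arrays alone called 12 genes (0.0895%), of which 11 were among the 66, and the fit on all 28 arrays called 124 (0.924%), of which 45 were. Without KMS11 the count was 3, without 8226/S it was 0, and without a variance trend in limma it was 0, so every adjusted p below holds for these 12 arrays and this model. Of the genes named below, IFIT1, ISG15, DNAAF1, EMP3, ANXA1, NQO1, GLA and CCNB2 passed in neither the 8-array nor the 28-array fit. The same held for ASPM, DEPDC1, SGO2, LY96, IER5, PDK1, HELLS, CD320 and MRPS25.

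The genes that rose most were HSPA6, LAMP3, IFIT3, CLU and IFIT1. CLU encodes clusterin, a secreted chaperone. Its signals after DAR were 4625, 11934, 9304 and 9348, against 2122, 4408, 1156 and 1343 in control 1. The lowest treated array lay above the highest untreated one, and the change was 2.07 ± 0.27, a 4.2-fold rise (adjusted p = 0.00659; 0.0299 in the 8-array fit). The 4 CLU probe sets that passed the filter on dim genes changed by 0.262 to 2.07, and the brightest is the one given. LAMP3, a lysosomal membrane protein that interferon induces, had signals of 2760, 3101, 1354 and 1493 after DAR, against 963.0, 838.8, 159.6 and 92.8 in control 1. These groups did not overlap either, and the largest steps were in KMS11 and 8226/S, whose untreated signals were the lowest. Its change was 2.45 ± 0.29, or 5.46-fold (adjusted p = 0.00659). In these bulk samples a change in RNA per cell and a change in the share of cells that express a gene cannot be told apart.

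HSPA6 encodes an HSP70 that is nearly silent without stress. Its signals were 197.2, 1543, 411.2 and 2614 after DAR, against 41.6, 12, 43.2 and 190.6 in control 1, so each treated array was above all 4 untreated ones. The change of 3.23 ± 0.45 (adjusted p = 0.00727) was the largest among the genes called, with the widest step in MM.1s, at 5.16. CCL5, a chemokine that draws T cells, had signals of 913.5, 3317, 1915 and 4652 after DAR, against 229.0, 589.5, 1064 and 12.3 in control 1. It was higher in 4 of 4 lines, by 0.83 in KMS11 and 6.72 in 8226/S, and its change of 2.96 ± 0.79 was short of the threshold (adjusted p = 0.114). In the limma fits on 8 and 28 arrays its adjusted p was 0.0934 and 0.0465. TRAF1, an adaptor of TNF receptors and a target of NF-kB, had signals of 214.6, 305.8, 226.3 and 351.7 after DAR, against 61.1, 95.8, 69.4 and 15.4 in control 1. It rose by 1.79 ± 0.36 (adjusted p = 0.044) and was the 1 of 17 tested NF-kB targets that passed (0.492% of all genes). CXCL10, a chemokine of the same list, was higher in MM.1s, KMS11 and 8226/S by 2.27, 1.79 and 3.2 but not in U266, and did not pass (adjusted p = 0.148).

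**Figure D1:**
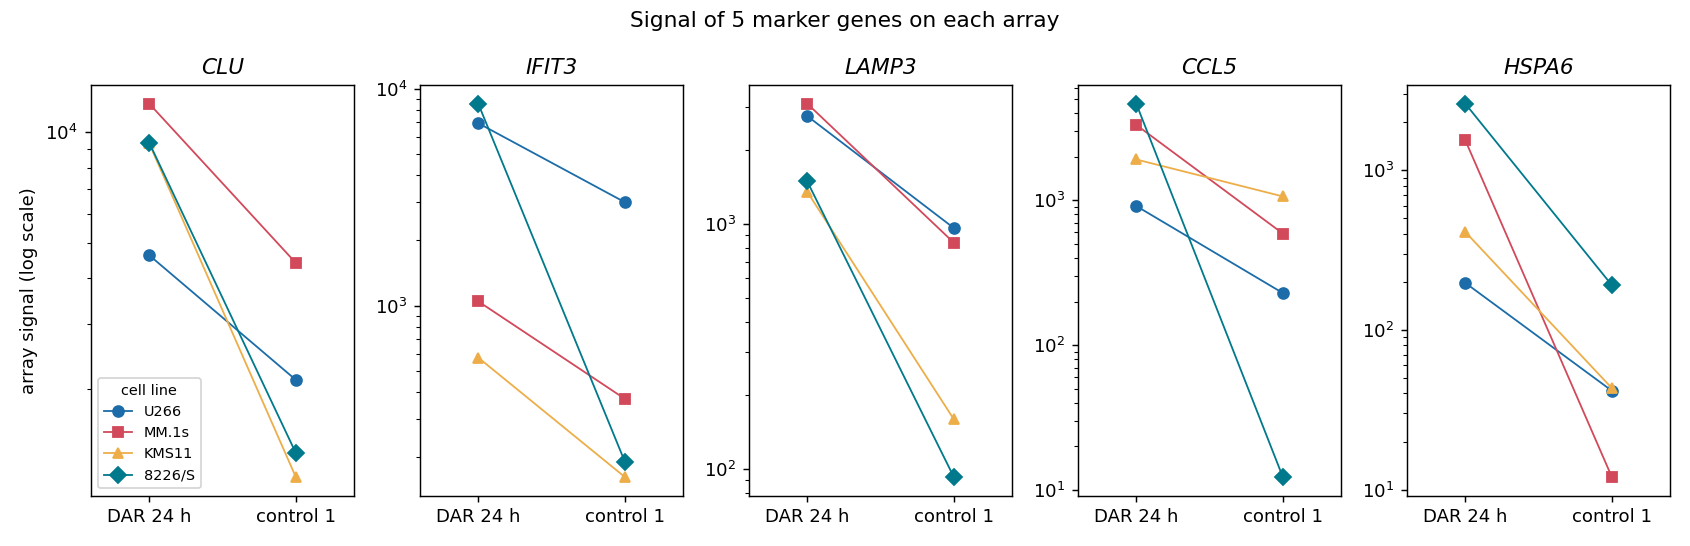
Array signal (log axis) of CLU, IFIT3, LAMP3, CCL5 and HSPA6 in 4 cell lines after 24 h of DAR (left of each panel) and in control 1 (right), with 1 point per array and a line joining the arrays of a cell line. Each joining line is higher at its DAR end, and CCL5 in 8226/S has the widest gap, 4652 after DAR against 12.3 in control 1.

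**Figure D2:**
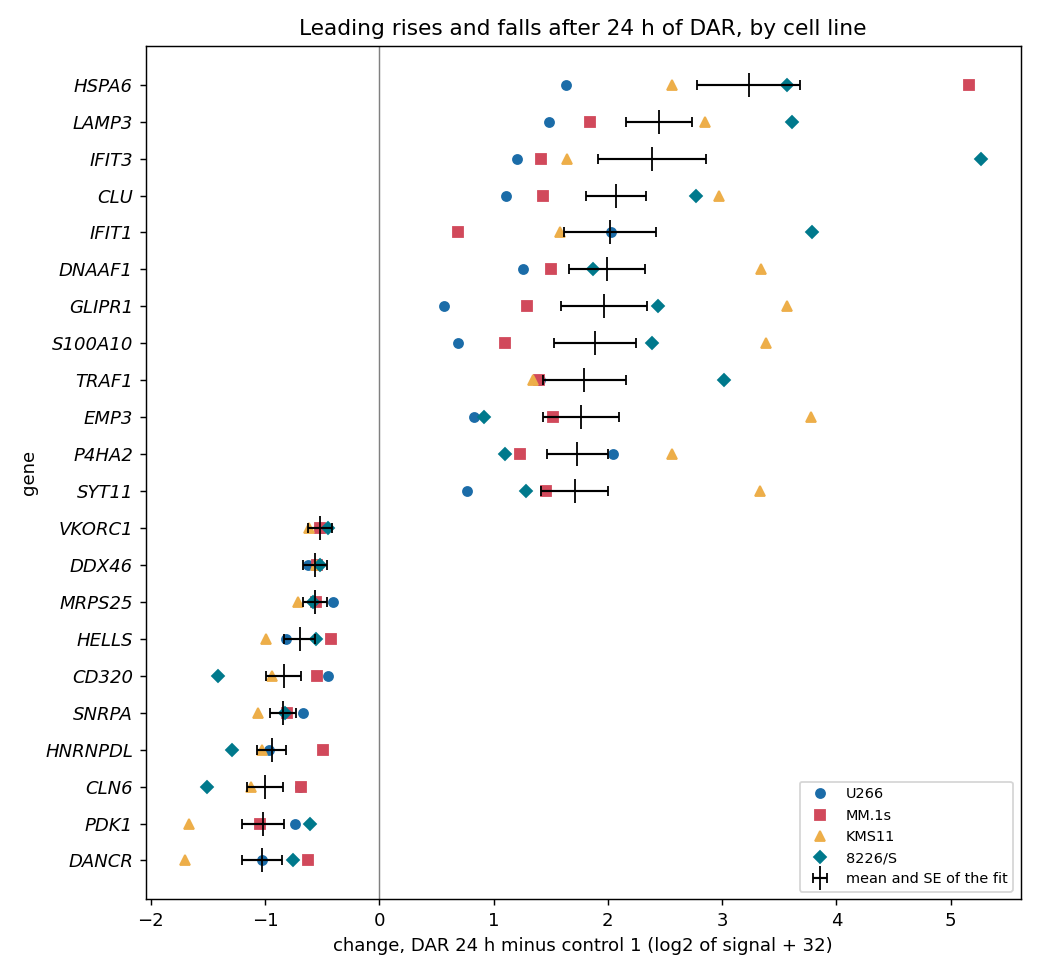
Change between DAR 24 h and control 1 (log2 of signal plus 32) of the 12 largest rises and the 10 falls that passed the test. Coloured points are the 4 lines, and black bars are the mean and SE of the fit. HSPA6 has the largest mean, 3.23, and DANCR the lowest, -1.03, and all points of a gene lie on one side of 0.

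Genes induced by type I interferon had the highest median change among the pathway lists. Of 33 list members tested, 5 rose and 0 fell (IFIT1, IFIT3, LAMP3, ISG15 and IFI35), against 0.417% and 0.0745% of all genes, and in the 8-array fit 1 of the 33 rose. Of the 33, 21 were higher in all 4 lines and 0 were lower in all 4, against 13.5% and 11.3% of all genes. The median change of the 33 was 1.12, against 0.02 over all genes. Like all gene lists used here, this one was chosen with earlier results of these data known, so the shares are descriptive. Of these genes, 28 would have passed the filter without the DAR 24 h arrays, and the median of those was 1.07. IFI44L, IFITM3, RSAD2 and CMPK2 did not pass the filter and were not tested, and 2 other members were not analysed here.

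IFIT3, whose product blocks viral RNA translation together with IFIT1, had signals of 6949, 1049, 577.2 and 8552 after DAR, against 3003, 372.6, 162.5 and 191.4 in control 1. Its levels differed more between lines than between groups, so the groups overlapped, but the treated array was higher in each line. The change was 2.38 ± 0.47 (adjusted p = 0.0427), with 5.26 in 8226/S and 1.2 to 1.65 in the other lines. IFIT1 had signals of 1547, 460.5, 262.5 and 3936 after DAR, against 355.8, 273.9, 66.2 and 255.5 in control 1. It rose by 2.02 ± 0.41 (adjusted p = 0.0427), least in MM.1s, by 0.69, and most in 8226/S, by 3.79. ISG15, a ubiquitin-like modifier, had signals of 3365, 709.4, 346.9 and 10569 after DAR, against 1169, 437.1, 145.0 and 1197 in control 1. Its rise was 1.59 ± 0.31 (adjusted p = 0.0415). IFI35 rose by 1.19 ± 0.2 (adjusted p = 0.0224), with a step of 0.44 in MM.1s, 0.84 in U266, 1.67 in KMS11 and 1.81 in 8226/S.

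The size of this response differed between lines. The median over the 33 genes was 0.86 in U266, 0.48 in MM.1s, 0.79 in KMS11 and 2.55 in 8226/S, while the median over all genes lay between 0.001 and 0.048 in the same lines. 8226/S had received the lowest dose. Without 8226/S the median of the list was 0.63 and 0 of its genes passed (limma; over all genes 1429 had an unadjusted p under 0.05). IFIT2, another RNA-binding member of the IFIT family, showed this unevenness. It passed the filter on dim genes only with its DAR 24 h arrays in U266 and 8226/S, so its values are descriptive. Its signals were 657.5, 9.7, 47.3 and 2446 after DAR, against 265.3, 17.9, 37.8 and 6.3 in control 1. It was higher by 6.02 in 8226/S and 1.21 in U266, and differed by 0.19 in KMS11 and -0.26 in MM.1s (adjusted p = 0.29). MX1, a GTPase that traps viral capsids, was likewise higher in 3 lines and lower in MM.1s, with signals of 5779, 114.7, 1429 and 6068 after DAR, against 1883, 261.6, 763.7 and 344.0 in control 1 (adjusted p = 0.29). IRF9, the DNA-binding subunit of the interferon-activated factor, and OAS2, a sensor of double-stranded RNA, had mean changes of 1.2 ± 0.32 (adjusted p = 0.114) and 1.58 ± 0.46 (adjusted p = 0.138).

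**Figure D3:**
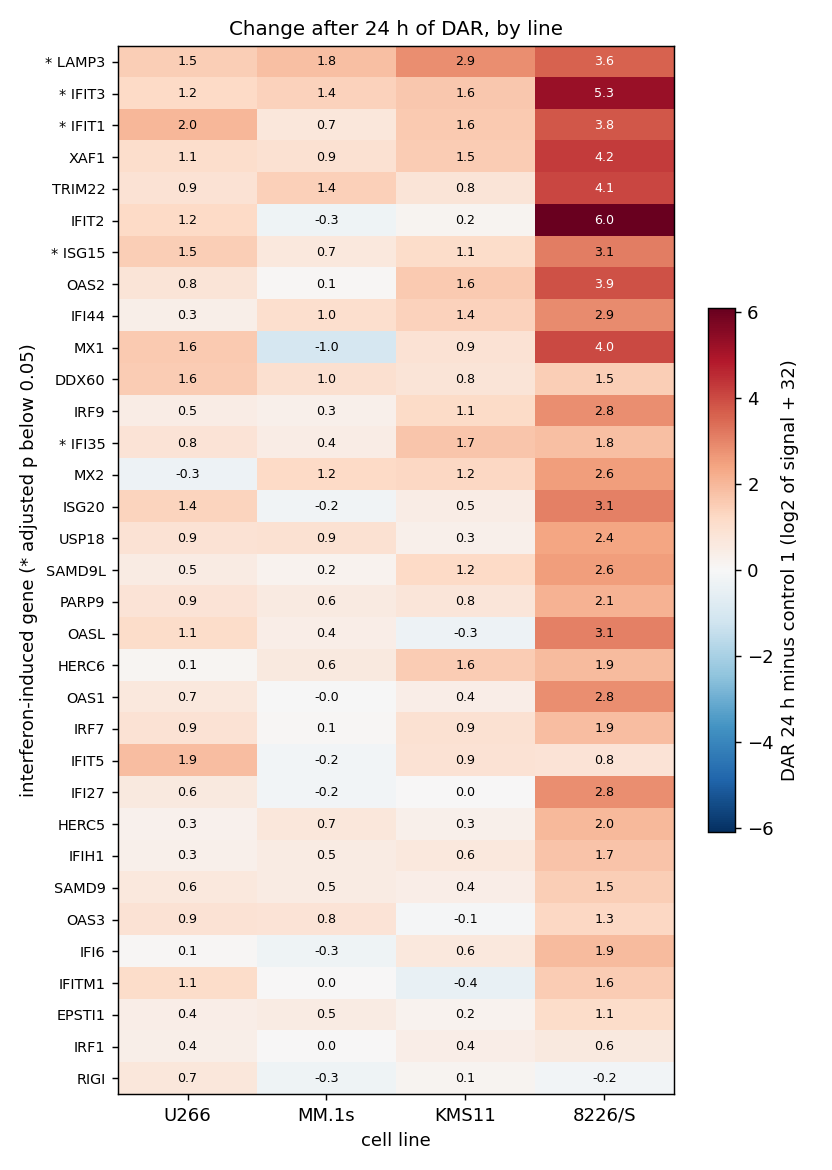
Change between DAR 24 h and control 1 (log2 of signal plus 32) of the 33 tested interferon-induced genes in the 4 lines, ordered by the mean over lines. Red cells are higher after DAR, and an asterisk marks the 5 genes with an adjusted p below 0.05. The 8226/S column is the darkest, with a median of 2.55, and the MM.1s column the palest, with a median of 0.48.

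The promoters of these genes are shown because the list is defined by its response to interferon and the element for that response has a known form. In RefSeq promoters of GRCh38.p14, the letters GAAA, any 2 bases and GAAA again were sought on both strands in the 250 bases before each gene's start, with overlapping matches counted. They were found in 15 of the 25 interferon list promoters available. Among 27305 promoters in all they were in 839 (3.07%), and among 10824 of genes tested in 255 (2.36%). Of the 45 promoters of genes that rose, 5 held them (11.1%). These were IFIT1, IFIT3 and ISG15, already counted in the interferon list, with EMP3 and SGO2. The 11.1% is thus no separate result about the genes that rose. The lines below give the 200 bases before the start of 3 called interferon genes on the strand of the gene, with the matches in capitals, where TTTC marks the same element on the other strand. IFIT1 is at chr10:89392423-89392622, IFIT3 at chr10:89327797-89327996 and ISG15 at chr1:1013297-1013496, all on the plus strand.
IFIT1: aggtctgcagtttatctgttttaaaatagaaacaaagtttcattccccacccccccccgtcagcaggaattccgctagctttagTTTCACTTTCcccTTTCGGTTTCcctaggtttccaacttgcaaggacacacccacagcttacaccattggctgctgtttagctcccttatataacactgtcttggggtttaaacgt
IFIT3: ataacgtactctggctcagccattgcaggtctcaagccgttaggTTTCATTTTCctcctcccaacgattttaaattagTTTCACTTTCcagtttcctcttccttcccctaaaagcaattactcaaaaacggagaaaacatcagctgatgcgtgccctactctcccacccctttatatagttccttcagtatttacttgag
ISG15: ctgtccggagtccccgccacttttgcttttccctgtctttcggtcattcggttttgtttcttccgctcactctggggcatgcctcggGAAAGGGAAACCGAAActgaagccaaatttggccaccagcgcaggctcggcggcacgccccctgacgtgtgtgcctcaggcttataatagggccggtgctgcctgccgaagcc
IFIT1 and IFIT3 each hold 2 matches on the strand opposite to the gene, and in ISG15 a pair of overlapping matches shares its middle GAAA. The window of IFI35, which also rose, holds 0 matches. A match describes these letters and does not show that the site was bound.

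The heat shock genes tested were mostly close to control 1 at 24 h. HSPA1A, HSPA1B, HSPA8 and AHSA1 of this list were not analysed here, so the counts do not cover them. Of 19 tested, 1 rose at 24 h (HSPA6) and 0 fell, against 0.417% and 0.0745% of all genes, with a median of 0.09. After 6 h of DAR 17 of 19 passed as higher than control 1 (6.96% of all genes), with a median of 1.25. Both comparisons use the same control 1 arrays. Set directly against each other, 17 of 19 passed as lower at 24 h than at 6 h (3.62% of all genes), with a median difference of -1.32. HSPA6 itself had signals of 2335, 10412, 8309 and 8305 at 6 h, above its 24 h values in each line (difference -3 ± 0.45, adjusted p = 0.00164). SERPINH1, the collagen chaperone HSP47, had signals of 213.9, 7.6, 162.7 and 724.8 at 24 h of DAR and 160.8, 8.1, 143.6 and 359.4 in control 1, and it had reached 1608, 769.5, 5211 and 3175 at 6 h. BAG3, a co-chaperone of HSP70, differed by 0.63 ± 0.2 from control 1 at 24 h (adjusted p = 0.16) and by 2.87 at 6 h. HSPB1, a small heat shock protein, was higher at 24 h than in control 1 in 4 of 4 lines but by 1.05 at most (adjusted p = 0.55). DNAJB1, another HSP70 co-chaperone, differed by -0.05 ± 0.19 (adjusted p = 0.938).

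HSPA6 is shown as the 1 heat shock gene that passed the test at 24 h. The heat shock element, searched as GAA, any 2 bases, TTC, any 2 bases and GAA on both strands of the same windows, was found in 3 of 17 heat shock list promoters (17.6%) and in 120 of 27305 promoters in all (0.439%). Its 200 bases at chr1:161524340-161524539 (GRCh38.p14, plus strand) hold 1 match, in capitals, on the opposite strand.
HSPA6: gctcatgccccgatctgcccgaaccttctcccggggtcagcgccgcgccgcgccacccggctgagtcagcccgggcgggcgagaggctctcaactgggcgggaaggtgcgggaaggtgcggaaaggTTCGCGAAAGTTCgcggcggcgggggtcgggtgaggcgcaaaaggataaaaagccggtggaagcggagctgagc

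Other early stress genes had no or few calls at 24 h, and of all genes tested 0.492% passed. At that share lists of this size would hold few or no calls, so a count of 0 does not show a return to control. Of 26 targets of ATF4, the factor of the integrated stress response, 0 passed at 24 h against control 1 (limma), with a median of 0.15. Of these 26, 12 passed as lower at 24 h than at 6 h (3.62% of all genes). Of 12 immediate early genes of the AP-1 group, 0 passed at 24 h and 8 passed as lower at 24 h than at 6 h (again 3.62% of all genes). The median of these 12 against control 1 was 0.43 at 24 h, with 1.22 in 8226/S and -0.14 to 0.07 in the other lines. HMOX1, heme oxygenase, had signals of 3694, 502.5, 971.2 and 9978 at 24 h of DAR, against 2535, 663.6, 832.0 and 5078 in control 1. The groups overlapped (change 0.34 ± 0.38, adjusted p = 0.744), whereas the 6 h signals were 24626, 2969, 19202 and 17856. Among 17 tested NRF2 targets 1 rose at 24 h (0.417% of all genes), NQO1, a quinone reductase. Its signals were 2004, 1260, 6447 and 5783 after DAR, against 1530, 698.0, 2732 and 3244 in control 1 (0.82 ± 0.14, adjusted p = 0.0238). NQO2, its paralogue, rose as much, by 0.81 ± 0.11 (adjusted p = 0.00659), and was named after its value was seen. SQSTM1, the autophagy receptor p62, differed by 0.68 ± 0.14 (adjusted p = 0.0545). All 13 tested genes of ubiquitin and autophagy had a mean above control 1, with a median of 0.28, but 0 passed (limma).

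**Figure D4:**
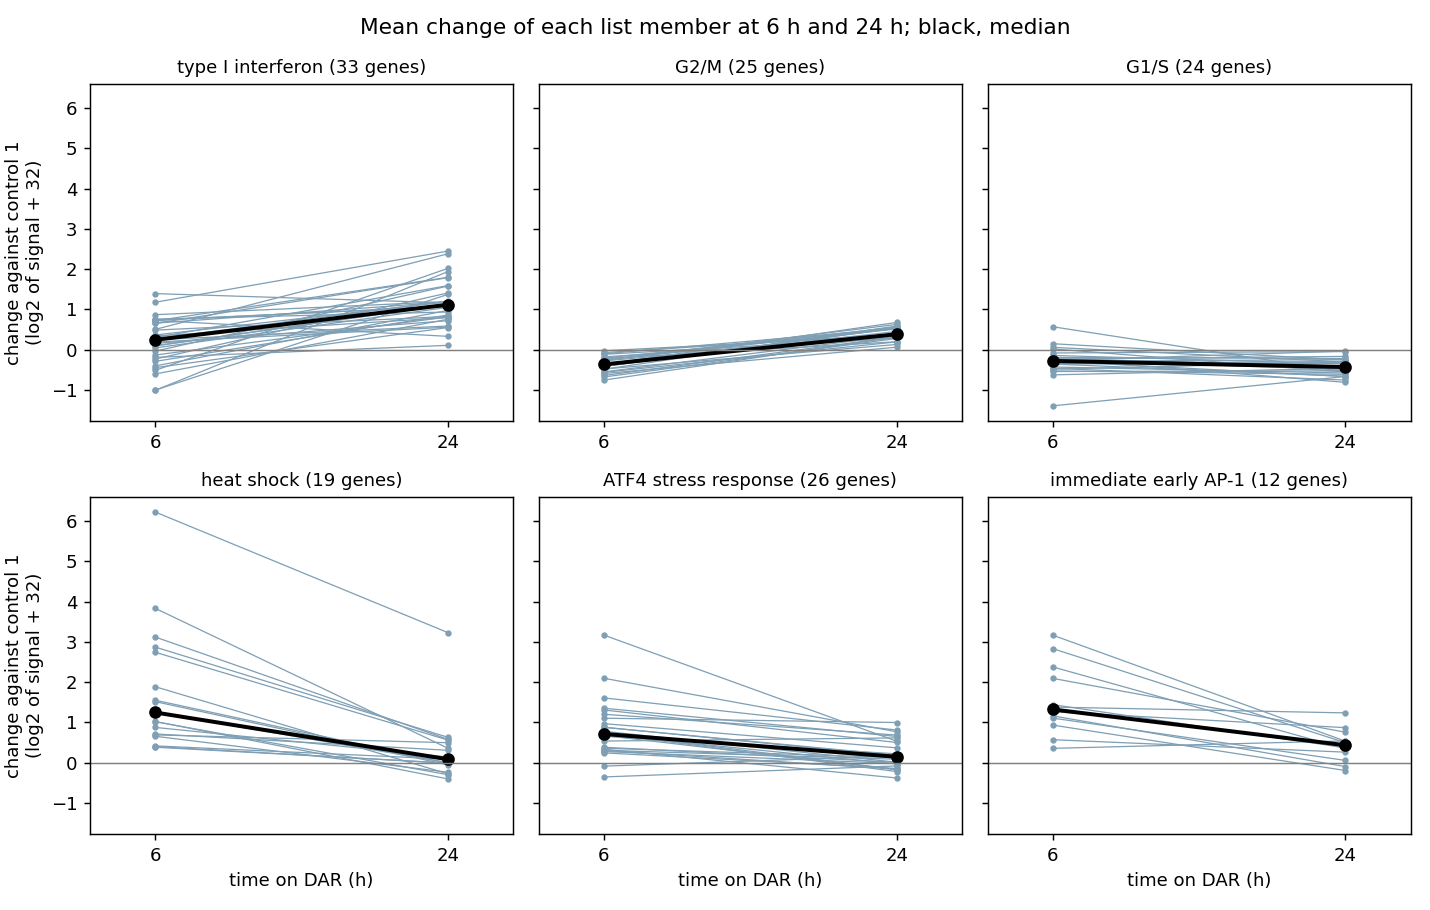
Mean change against control 1 (log2 of signal plus 32) of the tested members of 6 gene lists after 6 h and 24 h of DAR, with 1 thin line per gene and the median in black. The interferon median is 0.25 at 6 h and 1.12 at 24 h, the heat shock median 1.25 and 0.09, and the G2/M median -0.37 and 0.38.

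Of 12 tested genes of the list of secreted chaperones and matrix stress, 5 rose (CLU, ANXA1, S100A6, S100A10 and TIMP1), against 0.417% of all genes, 7 did not pass, and the median was 0.82. In the 8-array fit 1 of the 12 passed. This list was chosen with earlier results of these data known, so its share describes these genes and is no independent support. S100A10, the partner of annexin A2 at the cell surface, had signals of 501.5, 3608, 5256 and 6123 after DAR, against 297.9, 1669, 473.7 and 1148 in control 1. It rose by 1.89 ± 0.36 (adjusted p = 0.0337), by 3.39 in KMS11 and 0.69 in U266. Its other probe set that passed the filter changed by 0.375. S100A6, a calcium sensor, rose by 1.43 ± 0.27 (adjusted p = 0.0337), by 2.16 in U266 and 2.2 in KMS11 and by 0.68 and 0.69 in MM.1s and 8226/S.

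ANXA1, a phospholipid-binding annexin, had signals of 31.6, 571.3, 132.7 and 6291 after DAR, against 6.6, 120.2, 36.3 and 1197 in control 1. The lines span a wide range, but each treated array was the higher one of its line (1.58 ± 0.28, adjusted p = 0.0253). TIMP1, an inhibitor of matrix metalloproteases, rose by 0.9 ± 0.18 (adjusted p = 0.0427). The annexins ANXA4 and ANXA5 and the galectins LGALS1 and LGALS3, lectins that bind cell surface sugars, also rose, and are named here after their values were seen. ANXA4 had signals of 1792, 2964, 2448 and 3264 after DAR, against 1081, 1321, 1203 and 1239 in control 1, with no overlap (1.06 ± 0.14, adjusted p = 0.00659). LGALS1, among the brightest genes, had signals of 25623, 26793, 28941 and 31672 after DAR, against 19662, 13455, 11796 and 12609 in control 1, again with no overlap (1 ± 0.13, adjusted p = 0.00659). LGALS3 rose by 1.24 ± 0.19 (adjusted p = 0.0175). SAT1, which acetylates polyamines for export, rose by 1.54 ± 0.21 (adjusted p = 0.00659), and was also named after its value was seen.

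Of 18 tested lysosomal genes 1 rose (0.417% of all genes), GLA, the enzyme alpha-galactosidase A, by 0.52 ± 0.1 (adjusted p = 0.0427). Of the 18, 10 were higher in all 4 lines (13.5% of all genes). CD63, a membrane protein of late endosomes, and the sialidase NEU1 were among the 10, with changes of 0.43 ± 0.1 (adjusted p = 0.068) and 0.52 ± 0.12 (adjusted p = 0.0795). Among the other leading rises, GLIPR1 rose by 1.97 ± 0.38, EMP3, an epithelial membrane protein, by 1.76 ± 0.33, DNAAF1, an assembly factor of ciliary dynein, by 1.99 ± 0.34, and SYT11, a synaptotagmin of vesicle traffic, by 1.71 ± 0.3. Adjusted p-values of these 4 genes lay between 0.0238 and 0.0375. EMP3 and SYT11 moved most in KMS11, by 3.78 and 3.33. P4HA2, a collagen prolyl hydroxylase, rose by 1.73 ± 0.27 (adjusted p = 0.0161) on its brightest probe set, while its other probe set that passed the filter was lower after DAR (-0.55), so its direction depends on the probe set.

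Cell cycle genes were read by phase. Of 25 G2/M genes, 20 were higher in all 4 lines than in control 1 and 0 lower in all 4, against 13.5% and 11.3% of all genes. Their median was 0.38, and CCNB2 alone passed the test as higher (0.417% of all genes). CCNB2, a B-type cyclin that drives entry into mitosis, had signals of 12035, 7417, 12332 and 17552 after DAR, against 7279, 5956, 8348 and 12781 in control 1 (0.51 ± 0.1, adjusted p = 0.0427). CCNB1, the other main B-type cyclin, differed by 0.59 ± 0.12 (adjusted p = 0.0507), BUB1, a spindle checkpoint kinase, by 0.56 ± 0.12 (adjusted p = 0.0591), and CDC20, an activator of the anaphase-promoting complex, by 0.63 ± 0.15 (adjusted p = 0.0836), each in 4 of 4 lines. Of 4 BUB1 probe sets that passed the filter, 3 were higher after DAR and 1 was level, at -0.023. Against 6 h of DAR, 21 of 25 passed as higher at 24 h (3.88% of all genes), with a median difference of 0.77, and at 6 h of DAR 8 of 25 passed the test as lower than control 1 (6.29% of all genes). Outside the list, the mitotic genes ASPM, SGO2 and DEPDC1 rose by 0.71, 0.65 and 0.7 (adjusted p = 0.0421, 0.0415 and 0.044), and were named after their values were seen.

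The 24 G1/S genes leaned the other way. All 24 had a mean below control 1, with a median of -0.43, and 0 passed the test (0.492% of all genes). Of the 24, 17 were lower in all 4 lines and 0 higher in all 4, against 11.3% and 13.5% of all genes. MCM5, a subunit of the replicative helicase, had signals of 2519, 3883, 3000 and 5731 after DAR, against 3663, 5200, 5825 and 9772 in control 1 (-0.67 ± 0.17, adjusted p = 0.0944). MCM4 and MCM7, other subunits of this helicase, differed by -0.58 ± 0.16 and -0.49 ± 0.14 (adjusted p = 0.13 and 0.136), and CDC6, which loads it onto DNA, by -0.76 ± 0.19 (adjusted p = 0.098). Of 4 MCM4 probe sets that passed the filter, 3 were lower after DAR and 1 was level, at 0.016. HELLS, a chromatin remodeller of dividing cells, was among the genes that fell: its signals were 806.9, 1772, 1030 and 775.5 after DAR, against 1448, 2387, 2084 and 1152 in control 1 (-0.7 ± 0.14, adjusted p = 0.0426).

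The 10 genes that fell did so by less than the leading rises. DANCR, a long noncoding RNA, had signals of 890.5, 4230, 2709 and 3471 after DAR, against 1848, 6520, 8857 and 5895 in control 1, and was 2.04-fold lower (-1.03 ± 0.17, adjusted p = 0.0238). PDK1, a kinase that shuts pyruvate out of mitochondrial oxidation, had signals of 1653, 5473, 907.5 and 1670 after DAR, against 2775, 11335, 2943 and 2564 in control 1 (-1.01 ± 0.18, adjusted p = 0.0312). It was the 1 gene of 19 tested of glycolysis and hypoxia that passed (0.492% of all genes). HNRNPDL and SNRPA, an RNA-binding protein and a component of the U1 splicing particle, had changes of -0.94 ± 0.12 and -0.84 ± 0.11 (adjusted p = 0.00659 each), and DDX46, a splicing helicase, of -0.56 ± 0.11 (adjusted p = 0.0337). For HNRNPDL the groups did not overlap, with signals of 5455, 5915, 7824 and 5828 after DAR, against 10664, 8314, 15997 and 14327 in control 1. The others were CD320, the cellular receptor for vitamin B12 carried by transcobalamin, at -0.84 ± 0.15, CLN6 at -1 ± 0.16, MRPS25, a protein of the mitochondrial ribosome, at -0.56 ± 0.11, and VKORC1, which recycles vitamin K, at -0.52 ± 0.1. Adjusted p-values of these 4 lay between 0.0175 and 0.0427. Of 4 CLN6 probe sets that passed the filter, 3 were lower after DAR and 1 was higher. The 3 MRPS25 probe sets that passed it changed by -0.56 to -0.03.

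Several groups had few or no calls at 24 h (limma), and of all genes tested 0.492% passed. At that share lists of this size would hold few or no calls, so these counts do not set the groups apart. Of 12 tested genes of cholesterol synthesis 0 passed, 6 were lower in all 4 lines (11.3% of all genes) and the median was -0.42. DHCR7, which makes cholesterol in the last step of one branch, differed by -0.94 ± 0.27 (adjusted p = 0.133), by -1.88 in 8226/S and -0.25 in U266. Of 19 ER chaperone and folding genes 0 passed and 7 were lower in all 4 lines (11.3% of all genes), with a median of -0.26. PDIA4, a protein disulfide isomerase, differed by -0.52 ± 0.12 (adjusted p = 0.0836). Of 16 plasma cell identity genes 0 passed and the median was -0.14. SDC1, the plasma cell surface proteoglycan CD138, differed by -0.71 ± 0.2 (adjusted p = 0.128), mostly through KMS11 at -1.65. Of 12 genes of MYC and ribosome biogenesis 0 passed and 7 were lower in all 4 lines (11.3% of all genes). Of 25 proteasome, 14 MHC class I, 15 p53 target, 9 cell-death-promoting and 4 survival-promoting BCL2 family genes 0 passed, with medians from -0.01 to 0.15. PMAIP1, the cell-death-promoting protein NOXA, differed by 0.6 ± 0.17 (adjusted p = 0.137). Over all genes 1901 had an unadjusted p under 0.05.

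Most differences of a wide margin were seen in single lines. Genes at least 1 log2 unit above control 1 numbered 575 in U266, 494 in MM.1s, 718 in KMS11 and 915 in 8226/S, and those at least 1 below numbered 485, 380, 432 and 447. Only 9 genes were up by this margin in all 4 lines and 0 were down, whereas 1681 were up and 1337 were down in exactly 1 line. Across the 13414 genes the changes of a pair of lines correlated at 0.0689 (U266 and 8226/S) to 0.268 (KMS11 and 8226/S), which describes single arrays and not independent replicates. With 1 array per line these line-specific values have no replicate check. In U266, TAGLN2, an actin-binding protein, had a signal of 1357 after DAR and 205.4 in control 1 (2.55), and the other lines, where it was bright already, moved by 0.31 to 0.39. In MM.1s, FCRLA, a B-lineage Fc receptor-like protein, had 4668 after DAR and 687.1 in control 1 (2.71). In KMS11, PLAAT3, a phospholipase, had 223.5 after DAR and 8.2 in control 1 (2.67). In 8226/S, QPCT, an enzyme that cyclizes N-terminal glutamine, had 311.9 after DAR and 30.3 in control 1 (2.46), against control 1 levels of at least 11160 in the other lines.

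Set against 6 h of the same doses, 1006 genes differed at 24 h (7.5% of those tested), 521 higher and 485 lower. The largest differences upward by the naming rule were in XAF1, a pro-apoptotic interferon target, at 2.95 ± 0.47 (adjusted p = 0.0021), IFIT1 at 2.54 ± 0.41 (adjusted p = 0.00229), MX1 at 2.38 ± 0.57 (adjusted p = 0.0214), IFIT3 at 1.88 ± 0.47 (adjusted p = 0.0275), DPYSL3, a microtubule-associated protein, at 1.81 ± 0.39 (adjusted p = 0.0125), and IFI44 at 1.64 ± 0.35 (adjusted p = 0.0114). The largest downward were in SERPINH1 at -3.48, RFPL2 at -3.14, HSPA6 at -3, ATF3, a stress-induced transcription factor, at -2.64, HMOX1 at -2.58 and HSPB1 at -2.54. Of the 33 interferon genes, 14 passed the test as higher at 24 h than at 6 h (3.88% of all genes) and 0 as lower. XAF1 had signals of 743.9, 438.9, 243.1 and 1908 at 24 h, against 102.3, 137.9, 9.8 and 25.1 at 6 h and 342.6, 212.8, 63.4 and 70.4 in control 1. The 6 h values were thus the lowest of the 3 in every line, and against control 1 XAF1 did not pass at 24 h (1.94 ± 0.47, adjusted p = 0.0852). CLU did not differ detectably between the times (-0.21 ± 0.27, adjusted p = 0.719), with 6 h signals of 5065, 14380, 10308 and 11370. LAMP3 lay between control and 24 h in each line at 6 h, with signals of 1576, 2466, 306.6 and 367.3 (24 h minus 6 h 1.27 ± 0.29, adjusted p = 0.0164).

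The change after 24 h of DAR was also set against the change after 24 h of ATO, each against the control array of its own number. Doses were equal, at 2 µM, in 8226/S alone, and the drugs lie in different array sets, so drug, dose and set cannot be fully told apart. Of 13414 genes 39 differed (0.291%), 20 with the higher change after DAR and 19 with the lower (17 and 25 after quantile normalization). MT2A, a metal-binding metallothionein, differed from its control by 0.66, 0.52, 0.2 and -0.52 after DAR and by 5.35, 5.83, 4.96 and 2.51 after ATO (difference -4.45 ± 0.54, adjusted p = 0.000127). Of 8 metallothionein and metal genes tested, 0 passed after 24 h of DAR (0.492% of all genes) and 7 rose after 24 h of ATO (3.44%). Of the 8, 5 differed between the drugs (0.291% of all genes). MT1E had the smallest p of this list after DAR and was higher in all 4 lines, by 1.55, 1.03, 1.6 and 0.51 (limma, adjusted p = 0.113). Its other probe set that passed the filter changed by 0.077. Members of this family are near-identical, and their probe sets may share signal. HMOX1 differed from its control by 0.54, -0.38, 0.22 and 0.97 after DAR and by 3.73, 5.84, 5.34 and 3.12 after ATO (difference -4.17 ± 0.59, adjusted p = 0.000931). NQO1 had the smaller change after DAR and the larger after ATO (difference -1.61 ± 0.31, adjusted p = 0.0219).

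In the other direction, FOS, an AP-1 subunit, differed from its control by 1.98, 0.19, -0.24 and 1.55 after DAR and by -4.83, -4.22, -1.95 and -3.05 after ATO (difference 4.39 ± 0.67, adjusted p = 0.002). PAM, which amidates peptide hormones, rose after DAR, and its difference was 1.83 ± 0.32 (adjusted p = 0.00873). In the interferon list the median change was 1.12 after DAR and 0.06 after ATO. The test of the difference was passed by 0 of 33 genes (limma), against 0.291% of all genes. Over all genes 1485 had an unadjusted p under 0.05 in that test. IFIT3 came nearest of the genes named, with 1.2, 1.42, 1.65 and 5.26 after DAR and -1.48, -0.71, 0.73 and -0.19 after ATO (difference 2.79 ± 0.63, adjusted p = 0.0651). For CLU the difference was 0.2 ± 0.39 (adjusted p = 0.899), with a change of 2.07 after DAR and 1.87 after ATO.

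**Figure D5:**
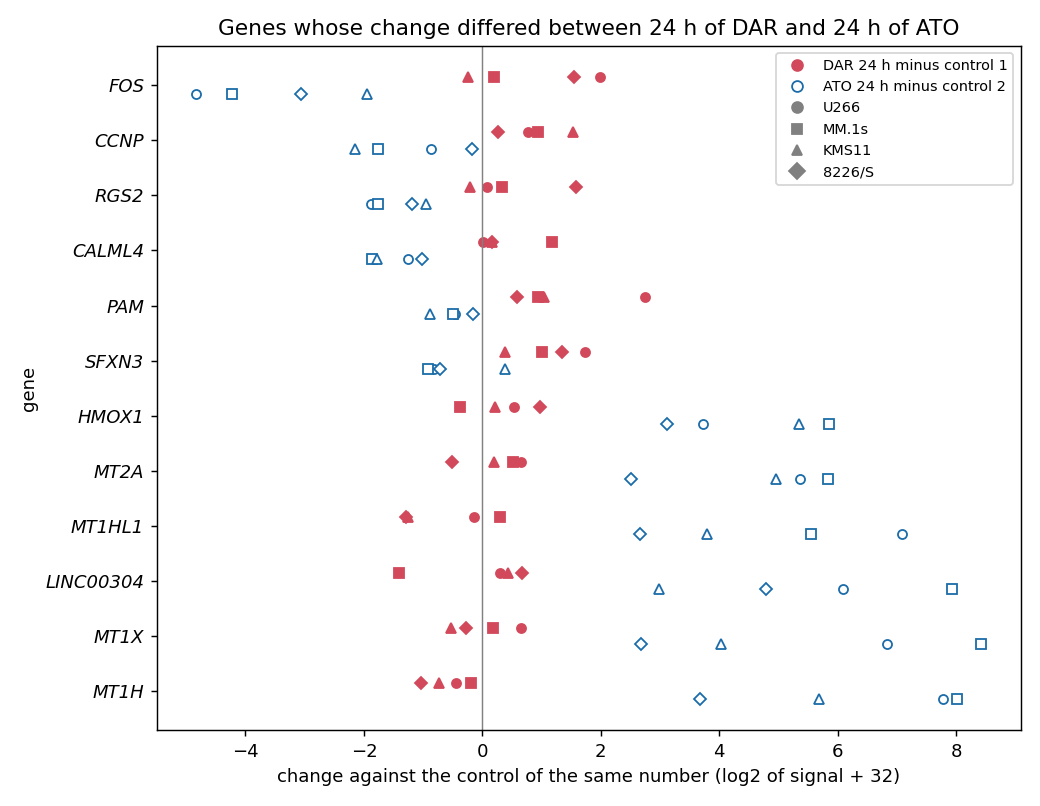
Change against the control of the same number (log2 of signal plus 32) of 12 genes whose change differed between 24 h of DAR (filled red) and 24 h of ATO (open blue), with marker shape giving the line. MT2A and the other metallothioneins drawn here lie between -1.29 and 0.66 after DAR and between 2.51 and 8.42 after ATO. FOS lies below 0 in all 4 lines only after ATO.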

How the data were processed

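The deposited table holds 54675 probe sets as linear intensity values on 28 arrays, made by the authors with GCOS, per the submitters' processing notes. The algorithm and version are not given in the sources used here. Each array has a 2% trimmed mean of 500.1. Samples were grouped by line, treatment and time from the labels. Platform annotation gave 1 symbol for 41091 probe sets, several for 1801, and none or an array control for 11783, and Entrez identifiers gave the current RefSeq symbol for 41037. A gene was read from its brightest probe set over the 12 DAR and control 1 arrays (19775 genes) and tested if above the 50th percentile of its array on at least 4 of these 12.

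Values were taken as log2 of the intensity plus 32, which understates changes of dim genes. They were fitted with limma 3.58.1 in R 4.3.3 (group and line, variance trend, 12 arrays), with Benjamini-Hochberg adjustment over all genes tested and a threshold of 0.05. DAR against ATO used all 28 arrays with a baseline for each line and control number. Arrays were paired by line: deviations from group means correlated at 0.799 to 0.858 within a line and at -0.0723 at most between lines. Subtracting the group mean in itself pulls the between-line values down. The within-line values reflect the identity of the line and do not show that cultures were paired. The number of arrays limits the precision. Alternatives covered offsets, filters, scaling, the arrays fitted, the control, the line term, the variance trend, the choice of probe set and leaving out each line.

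Genes named are the 12 largest rises and falls called with a mean signal of at least 200 in the higher group, up to 4 members per list with the smallest p and all called members of lists with few calls, 5 markers, the largest differences against 6 h and against ATO, and genes that changed by 0.5 or less in 3 lines and most in the other, exceptions being marked. The gene lists and the members were chosen with earlier results of these data known. Probe sets of several genes were left out. Figures used matplotlib 3.10.9 in Python 3.11.15.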

Additional observations from a re-analysis of the deposited data

Results flagged for a closer look

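In 3 of 99 named genes the change in 1 line stood apart from the other 3 by Dixon's test for 4 values, and among all 13414 genes 5.43% did, near the 1 in 20 that chance gives. IFIT3 changed by 5.26 in 8226/S and by 1.2 to 1.65 in the other lines. TRAF1 changed by 3.02 in 8226/S, where its untreated signal was 15.4, and by 1.35 to 1.4 elsewhere. ATF3, which did not pass at 24 h, differed by 2.24 in 8226/S and by -0.176 to 0.105 in the other lines.

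The interferon gene IFNB1, too dim to enter the tests, had a signal of 346.3 on the 8226/S array after 24 h of DAR, against 6.01 on the control 1 array of that line. It had 6.18, 6.74 and 13.1 after 24 h of DAR in U266, MM.1s and KMS11, against 12.9, 6.33 and 22.6 in their control 1 arrays. At 6 h of DAR it had 14.2 in 8226/S, and on the ATO 24 h array of that line 19.3. The value rests on 1 array and 1 probe set and was picked after it was seen. RSAD2, also untested, had 567.7 in 8226/S and 250.7 in U266 after 24 h of DAR, against 22.5 and 71.0 in control 1, and IFI44L had 800.1 and 147.7 in these lines, against 32.04 and 61.8. In MM.1s and KMS11 IFI44L was lower after DAR, at 25.6 and 13.6, against 37.9 and 25.7. RSAD2 had 56.7 and 23.4 in MM.1s and KMS11, against 20.1 and 3.29. CMPK2, untested as well, had 777.3 in U266 but 58.6 in 8226/S after DAR, against 142.2 and 57.4 in control 1.

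Several named genes differed by test between 24 h and 6 h of DAR (24 h minus 6 h, adjusted p below 0.05). Of the genes named from the interferon list, those higher at 24 h were XAF1 by 2.95, IFIT1 by 2.54, MX1 by 2.38, IFIT3 by 1.88, IFI44 by 1.64, OAS2 by 1.62, ISG15 by 1.29, LAMP3 by 1.27 and IFI35 by 0.82. Others higher at 24 h were CCNB1 at 1.07, ASPM at 0.98, BUB1 at 0.98, CDC20 at 0.89, DEPDC1 at 0.87, CCNB2 at 0.77, SGO2 at 0.72, DPYSL3 at 1.81, ALOX5 at 0.76, ANXA4 at 0.71, CEP164 at 0.67 and TIMP1 at 0.62. Lower at 24 h than at 6 h were genes with differences of -3.48 for SERPINH1, -3.14 for RFPL2, -3 for HSPA6, -2.64 for ATF3, -2.58 for HMOX1, -2.54 for HSPB1, -2.24 for BAG3, -1.91 for P4HA2, -1.57 for DNAJB1, -1.43 for GLIPR1, -0.97 for PMAIP1, -0.91 for SQSTM1 and -0.76 for IER5. The genes DANCR, CD320 and MRPS25, which fell at 24 h, were also lower than at 6 h, by -0.77, -0.73 and -0.53.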

How the results depend on the processing

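The count of 66 genes changed after 24 h of DAR lay between 64 and 86 with offsets of 16 or 64, a filter at the 60th percentile or quantile normalization. It was 40 without the filter, 43 with arrays centred on their medians, 12 on 8 arrays, 124 on 28 arrays with separate baselines, 476 (279 higher, 197 lower) on 28 arrays with pooled controls, 219 over probe sets one by one and 10 with the median of a gene's probe sets. With control 2 in place of control 1, which lies in the other array set, it was 5164 (2639 higher, 2525 lower). It was 0 with no replicate block (the line term left out) and 0 without the variance trend in limma, with 167 and 1622 genes at an unadjusted p under 0.05. With one line left out it ranged from 0 to 69, lowest without 8226/S and next without KMS11. The cause of these shifts was not tested.

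The 1006 genes that differed between 24 h and 6 h became 661 with median centring and 371 to 846 with one line left out. The 39 that differed between DAR and ATO became 25 without the filter and 8 to 50 with one line left out. CLU kept its sign in every alternative, at 1.61 to 2.39, as did LAMP3 at 1.93 to 2.77, HSPA6 at 2.47 to 3.76, IFIT3 at 1.42 to 2.78 and IFIT1 at 1.22 to 2.47, while their adjusted p reached 1 without the line term. With control 2 the direction turned for TIMP1 (-0.22), TRAF1 (-0.12), MRPS25 (0.44), MT2A (-1, and -0.39 with pooled controls), SERPINH1 (-0.26), OAS2 (-0.03), RFPL2 (-0.74, and -0.24 with pooled controls) and ATF3 (-0.66, and -0.06 with pooled controls). With the median of probe sets it turned for P4HA2 (-0.35), CLN6 (0.34), PCBD2 (-0.04) and DNAJB1 (0.03), and with one line left out DNAJB1 ranged from -0.27 to 0.12, RFPL2 from -0.25 to 0.67 and ATF3 from -0.03 to 0.77.

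With 4 lines and 1 array each, small changes are not detectable, and dim genes near background have no order. Time in culture was not matched, doses differed between lines, and direct comparison with control 2 mixes treatment and array set.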

Other observations

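The following 7 genes rose after 24 h of DAR and belong to no list. They were picked after their values were seen, and no grouping of them was tested. APOBEC3B, a cytidine deaminase that restricts viruses, had signals of 8067, 15199, 3985 and 16344 after DAR, against 4513, 12741, 1028 and 5664 in control 1 (U266, MM.1s, KMS11, 8226/S; change 1.13 ± 0.21, adjusted p = 0.0337). LY96, the partner of the endotoxin receptor TLR4, had 7981, 5444, 3280 and 3858 after DAR, against 3599, 4067, 892.0 and 1734 in control 1 (1.14 ± 0.19, adjusted p = 0.0238). GSDMB, a gasdermin, had 402.4, 610.9, 1026 and 424.9 after DAR, against 202.5, 279.0, 410.9 and 53.5 in control 1 (1.4 ± 0.24, adjusted p = 0.0238), and its change differed from that after ATO by 1.52 ± 0.33 (adjusted p = 0.0397). CRLF2, a cytokine receptor chain, rose by 1.62 ± 0.28 (adjusted p = 0.0238), most in KMS11 at 2.67. ALOX5, which starts leukotriene synthesis, rose by 1.07 ± 0.2 (adjusted p = 0.032), and CARD8, an inflammasome sensor, by 1.01 ± 0.19 (adjusted p = 0.032), although 1 of 3 CARD8 probe sets was level or lower. TANK, an adaptor of TBK1 signalling, rose by 0.8 ± 0.16 (adjusted p = 0.044). Other probe sets of GSDMB, ALOX5 and TANK that passed the filter were also higher but by less, with lowest changes of 0.085, 0.102 and 0.042.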
